A study of Mus musculus with 4 samples.

Results

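CC chemokines are small secreted proteins that recruit leukocytes through G protein-coupled CC receptors. 9 genes of this family, chosen by symbol among the 32285 genes of the matrices, are described here: the ligands Ccl2, Ccl3, Ccl4, Ccl6, Ccl7 and Ccl9, and the receptors Ccr1, Ccr2 and Ccr9. CCL2 and CCL7 act on CCR2, by which monocytes leave the marrow and enter injured tissue. CCL3 acts on CCR1, as do CCL6 and CCL9, which are found in rodents. CCR9 is the receptor of CCL25 and is known from thymocytes, gut-homing lymphocytes and plasmacytoid dendritic cells.

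Single-cell libraries came from C57BL/6J male mice aged 20 weeks, and each combination of tissue (fracture callus or trabecular bone) and condition (control or glucocorticoid, GC) had 1 library. In the labels, GC mice carried a slow-release pellet of prednisolone at 6.25 mg/kg per day, control mice a placebo pellet, and samples were taken at week 2. The study's text instead speaks of daily injection in the fracture experiment. The number of mice behind each library is not stated in the sources used here. After filtering, callus gave 6714 control and 6890 GC cells and trabecular bone 3832 control and 4604 GC cells, with a median of 3276 to 6270 unique molecular identifiers (UMIs, counted RNA molecules) per cell. With 1 library per group no test was possible. Every interval below covers counting error at 95% only, and is too narrow where a few cells hold many UMIs. The GC callus matrix was deposited as called cells, so its free RNA could not be measured. Pairs of libraries shared 7 to 12 cell barcodes, at most 0.230% of the smaller library. Cell classes were rebuilt from marker genes and are neutrophil-like, monocyte-like and so on, and the suffix is left out below. Trabecular bone held 13 control and 35 GC stromal cells and no cluster with the markers of osteoblasts, chondrocytes, macrophages or osteoclasts. Nearly all of its cells were thus of blood lineages.

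The 6 ligands lie on mouse chromosome 11 in 2 groups. In GRCm38 coordinates, Ccl2 (chr11:82035571-82037453) and Ccl7 (chr11:82045712-82047525) are neighbours on the plus strand. Ccl9 (chr11:83572919-83578636), Ccl6 (chr11:83587882-83593087) and Ccl3 (chr11:83647844-83649355) are on the minus strand and Ccl4 (chr11:83662584-83664683) on the plus strand. The receptors lie on chromosome 9, Ccr9 (chr9:123678439-123784330) and Ccr2 (chr9:124101950-124113557) on the plus strand and Ccr1 (chr9:123962124-123968692) on the minus strand.

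Promoter sequences from RefSeq (GRCm38.p6) were at hand for 6 of the 9 genes: Ccl3, Ccl6, Ccl9, Ccr1, Ccr2 and Ccr9. The 250 bases before the start were searched on both strands for the NF-kB motif (GGGA and TCC with 3 bases between), the AP-1 motif TGANTCA and the AGAACA hexamer of the glucocorticoid receptor, which 3.86%, 6.75% and 16.1% of 32841 promoters hold. 2 matches were found, at base -74 of Ccr1 and at base -53 of Ccl9, and neither overlapped another motif. They are shown with their surroundings, motif in capitals, as the only matches. The first is chr9:123968747-123968776 and the second chr11:83578671-83578700, both on the minus strand. A match describes the letters only.
Ccr1, NF-kB motif: ctttagaaggGGGAGGCTCCtcactgacca
Ccl9, AP-1 motif: tttactctctcTGAATCAatttgaactttg

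Levels are given as UMIs per 1000000 UMIs of a class (CPM). Since the counts are of transcript ends and not scaled by length, levels are compared between classes and libraries for 1 gene at a time. Each gene had its own set of classes, shown in the plot of levels by class. Ccl3, Ccl4 and Ccl6 were high in mast cells and basophils and in neutrophils, and Ccl6 also in trabecular monocytes. Ccl4 was also high in callus macrophages, GC trabecular NK cells and control trabecular plasmacytoid dendritic cells. In the last, 32 in number, 76 of 113 Ccl4 UMIs were in 1 cell. Ccl2 was high in macrophages, stromal cells and monocytes, and Ccl9 in osteoclasts, monocytes and mast cells and basophils. Ccl7 was high in callus macrophages and in stromal cells of control callus and GC trabecular bone, whereas monocytes as a class held 1.89 to 11.4 CPM of it. Ccr1 was highest in neutrophils of all 4 libraries, Ccr2 in monocytes, NK cells or plasmacytoid dendritic cells, and Ccr9 in plasmacytoid dendritic cells.

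**Figure D1:**
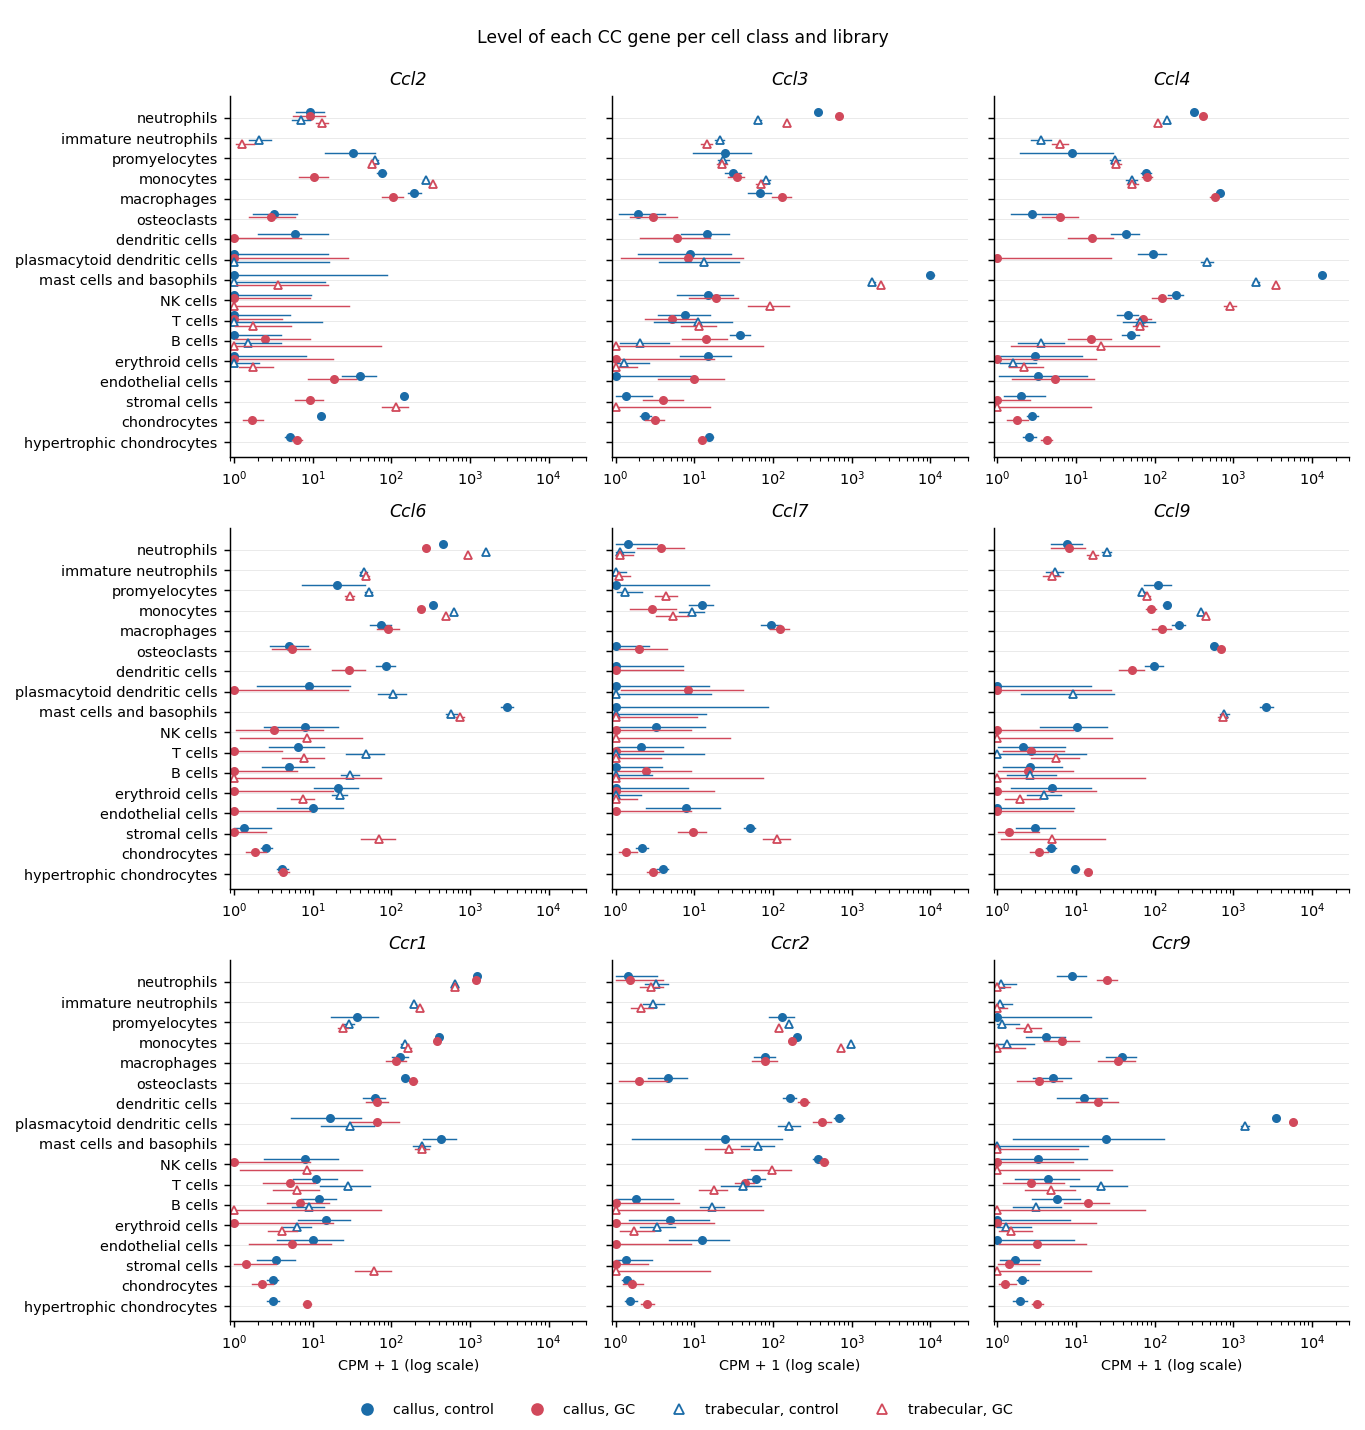
Level of each gene (CPM + 1, log axis) in 17 cell classes of the 4 libraries; circles are callus, open triangles trabecular bone, blue control and red GC, and bars are 95% intervals of counting error. Ccr9 stands at 1410 to 5760 CPM in plasmacytoid dendritic cells and below 105 CPM in every other class plotted, and Ccl3 and Ccl4 are highest in mast cells and basophils in the 3 libraries with at least 15 of them.

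Ccl2, the main attractant of monocytes, was highest in different cells of the 2 tissues. In callus it was 195 CPM (160 to 235) in control macrophages and 105 CPM (76.0 to 140) in GC macrophages. It was 144 CPM (130 to 158) in control stromal cells and 8.15 CPM in GC stromal cells. The cluster with most callus monocytes (cluster 5, 503 control and 476 GC cells) gave 82.6 CPM in control and 10.3 CPM in GC, and chondrocytes gave 11.7 and 0.679 CPM. Ccl2 was thus lower in the GC library in these 4 callus classes, but not in all. Neutrophils held 8.34 CPM in control and 8.17 CPM in GC, and hypertrophic chondrocytes 4.2 and 5.35 CPM. Of the hypertrophic clusters with at least 50 UMIs over both libraries, cluster 11 was higher in GC (ratio 3.14) and cluster 8 lower (0.363). Hypertrophic cluster 21.1, which had GC cells only, held 42.05 CPM. B cells and erythroid cells, which should lack Ccl2, held 0 or 1 UMI per class in both libraries. The control chondrocyte level came from 44 of 1215 cells, with 109 of 403 UMIs in 1 cell. It was near the 11.5 CPM of control callus barcodes with at most 100 UMIs, taken as empty droplets. In trabecular bone, monocytes held 272 CPM (253 to 292) in control and 338 CPM (317 to 359) in GC, and promyelocytes 60.2 and 56.4 CPM. Of the 373 Ccl2 UMIs of the 273 control promyelocytes, 225 were in cluster 10.0 (40 cells) and 97 in cluster 10.2 (24 cells). Clusters 10.1 and 10.3, divided from the same cluster, were named monocytes, so the promyelocyte level came mostly from cells close to monocytes.

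The GC/control ratio of Ccl2 was 0.0567 (0.0338 to 0.0896) in callus stromal cells, 0.0579 (0.0248 to 0.115) in chondrocytes, 0.125 (0.0737 to 0.201) in monocyte cluster 5 and 0.537 (0.370 to 0.769) in macrophages. In trabecular monocytes it was 1.24 (1.13 to 1.37). Few callus cells made up these sums. Among stromal cells, 17 of 184 control cells and 9 of 175 GC cells held a Ccl2 UMI, with 180 UMIs in the highest control cell and 7 in the highest GC cell. Without the highest cell of each library the stromal ratio kept its direction, at 83.4 against 5.19 CPM. In monocyte cluster 5, 61 of 503 control cells and 18 of 476 GC cells held a UMI, and the highest cells held 29 and 2. The difference was thus in the number of positive cells as well as in the UMIs per positive cell. All 3 stromal subclusters had less Ccl2 in GC, and the first of them (50 control and 91 GC cells) differed most, with 368 CPM in control and 2.60 CPM in GC.

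**Figure D2:**
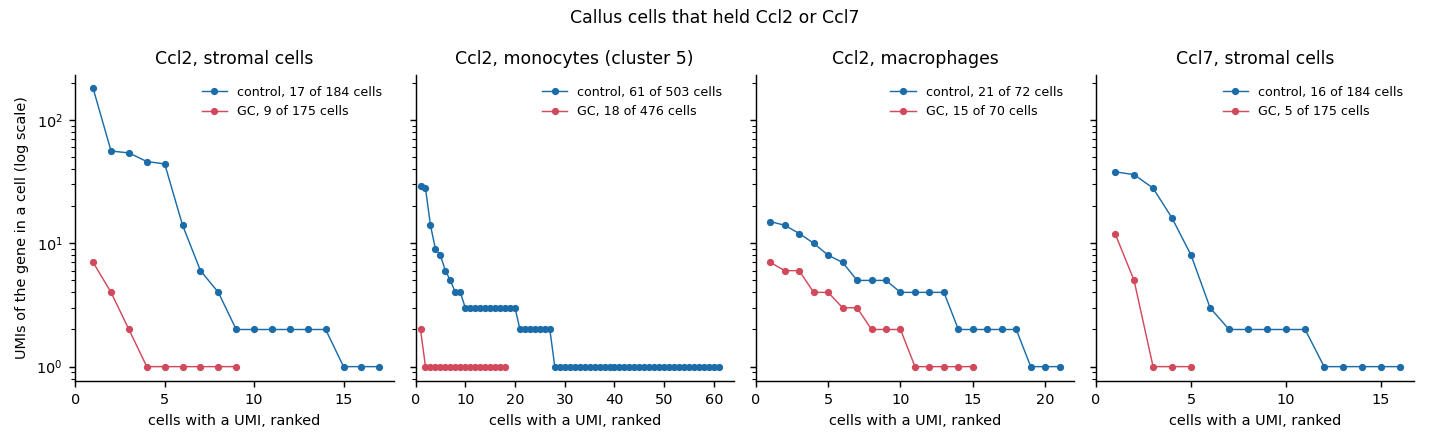
UMIs of Ccl2 or Ccl7 in each callus cell that held any (vertical axis, log scale), ranked from the highest cell (horizontal axis); blue is control and red GC, and the legends give positive cells of all cells. The highest control stromal cell holds 180 Ccl2 UMIs against 7 in the highest GC cell, and in monocyte cluster 5 the highest cells hold 29 and 2.

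Ccl7, the neighbour of Ccl2, was read far less often. Callus macrophages held 93.8 CPM (70.2 to 123) in control and 121 CPM (90.2 to 159) in GC, so that the intervals overlapped. Callus stromal cells held 49.4 CPM in control and 8.58 CPM in GC, a ratio of 0.174 (0.103 to 0.278), from 16 and 5 positive cells. In hypertrophic chondrocyte cluster 8, 63 of 64 control UMIs of Ccl7 sat in 1 cell, and no difference remained without it. Trabecular bone held 42 Ccl7 UMIs in control and 68 in GC over all cells. The trabecular GC stromal cells, 35 in number, gave 112 CPM of both Ccl2 and Ccl7, each from 28 UMIs. After each cell was thinned to 1000 UMIs, 3 of 4 Ccl7-positive control callus monocytes also held Ccl2. Of all control callus monocytes with at least 1000 UMIs, 5.25% did.

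Genes known to be induced by tissue dissociation were also lower in some of these callus cells. Of a list of 13 such genes, all 13 had enough counts in monocyte cluster 5, where 7 were at least 2-fold lower in GC, among them Fos, Atf3 and Nr4a1, and the summed level of the list was 4469 CPM in control and 2172 CPM in GC. In stromal cells 4 of 13 were lower, and the sums were 10448 and 6996 CPM. Macrophages had sums of 3673 and 3156 CPM. In trabecular monocytes, 1 of 13 was lower and the sums were 6140 and 5461 CPM. The part of dissociation in the Ccl2 difference was not tested.

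Ccl3 and Ccl4, which attract macrophages, NK cells and T cells, were most concentrated in mast cells and basophils. In control trabecular bone, 30 such cells held 1821 CPM (1666 to 1986) of Ccl3 and 1928 CPM (1769 to 2098) of Ccl4. In GC trabecular bone, 42 cells held 2351 CPM (2199 to 2511) of Ccl3 and 3516 CPM (3330 to 3711) of Ccl4, ratios of 1.29 (1.16 to 1.44) and 1.82 (1.65 to 2.02). Without the highest cell of each library the ratios were 1.60 and 2.02. Control callus had 16 mast cells and basophils with 10048.5 CPM of Ccl3 and 13562 CPM of Ccl4, of which 2 cells held 76.9% and 59.8%, and GC callus had 4, too few to compare. These cells were 0.783% of control and 0.912% of GC trabecular cells and held 31.8% and 32.8% of all Ccl3 UMIs there, as the plot of class composition shows.

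In neutrophils, Ccl3 was higher in GC than in control in both tissues. Callus neutrophils held 374 CPM (350 to 399, 1682 cells) in control and 697 CPM (660 to 736, 1382 cells) in GC, a ratio of 1.86 (1.71 to 2.03). Trabecular neutrophils held 63.8 CPM (58.4 to 69.7, 1572 cells) in control and 148 CPM (140 to 157, 1989 cells) in GC, a ratio of 2.32 (2.09 to 2.58). At 1000 UMIs per cell, Ccl3-positive neutrophils were 17.1% of control and 34.7% of GC cells in callus, and 4.45% and 8.35% in trabecular bone. These shares leave out neutrophils under 1000 UMIs, 287 control and 374 GC cells in callus and 23 and 25 in trabecular bone. Erythroid cells, which should lack Ccl3, were positive in 1.72% in control callus and in none of the trabecular libraries. The levels of callus neutrophils were above those of trabecular neutrophils in either condition.

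Trabecular neutrophils fell mostly into clusters that belonged nearly to 1 library, whereas in callus only neutrophil cluster 1 did. In callus, cluster 1 held 1043 control and 78 GC cells, cluster 0 held 507 and 1133, and cluster 12 held 132 and 171. Within them Ccl3 was 328 and 371 CPM, 675 and 862 CPM, and 34.9 and 279 CPM, higher in GC in each, with an interval of the ratio that included 1 in cluster 1 (0.789 to 1.58). In trabecular bone, cluster 1 held 1004 control and 59 GC cells, whereas clusters 0 and 2 held 1090 and 768 GC cells and no control cell. Of the 1211 Ccl3 UMIs of GC trabecular neutrophils, 1045 were in cluster 2, at 478 CPM (450 to 508), against 26.5 CPM in cluster 0. Within trabecular cluster 1 Ccl3 was 111 CPM in control and 73.4 CPM in GC (ratio 0.663, 0.420 to 0.998), opposite to the class as a whole, and within cluster 4 it was 5.74 and 11.2 CPM. Without clusters nearly of 1 library, the log2 ratio was 0.70 in callus and 0.59 in trabecular bone, the latter over the 568 control and 72 GC cells of cluster 4, with only 20 and 6 UMIs, fewer than the 50 asked for elsewhere. A change of level within a neutrophil state and a change of states cannot be told apart here.

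Scaling also mattered in trabecular neutrophils. The median log2 GC/control ratio over the 7067 genes with enough counts was 0.28 there, and the summed level of 12 neutrophil markers was 361102 CPM in control and 274599 CPM in GC. With median of ratios scaling the log2 ratio of Ccl3 was 0.78 in place of 1.15, below the 2-fold line but in the same direction. The same scaling gave -0.73 for Ccl4, -1.15 for Ccl6 and -0.39 for Ccr1 in these cells. Of a list of 9 genes that glucocorticoids induce, 4 of 8 with enough counts were at least 2-fold higher in GC trabecular neutrophils (Fkbp5, Tsc22d3, Zbtb16 and Klf9), whereas in callus neutrophils 1 of 7 was higher (Klf9) and 1 lower (Dusp1). The dissociation list was lower in GC callus neutrophils, 7939 against 3361 CPM, and near equal in trabecular neutrophils, 7389 against 7143 CPM. Of 11 dissociation genes read in callus neutrophils, 5 were lower in GC and 1, Atf3, was higher. Their part in the Ccl3 difference was not tested.

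Ccl4, encoded beside Ccl3, had class ratios on opposite sides of 1 in the neutrophils of the 2 tissues. It was 320 CPM in control and 416 CPM in GC in callus, a ratio of 1.30 (1.17 to 1.44), and 142 and 109.5 CPM in trabecular bone, a ratio of 0.770 (0.705 to 0.842). Within callus clusters 0 and 12 the ratios were 0.979 (0.853 to 1.13) and 1.18 (0.859 to 1.64), and within trabecular cluster 1 it was 0.959 (0.744 to 1.22), all with intervals that included 1. Callus cluster 1 gave 1.60 (1.15 to 2.18), with 78 GC cells, and trabecular cluster 4 gave 0.110 (0.0132 to 0.407), with 72. The trabecular class ratio was not stable, since requiring 500 genes per cell gave a log2 ratio of 0.18 and leaving out clusters nearly of 1 library gave -2.15. Ccl4 UMIs were held by few cells, 95.8% of them in the 158 highest of 1572 control trabecular neutrophils, against 26.7% for Ccr1. Cells with Ccl4 often also held Ccl3. At 1000 UMIs, 50 of 130 Ccl4-positive control callus neutrophils and 98 of 193 in GC did, that is 38.5% and 50.8%. Of all callus neutrophils with at least 1000 UMIs, 17.1% and 34.7% held Ccl3. In trabecular neutrophils the shares were 13.6% against 4.45% in control and 30.7% against 8.35% in GC.

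Among other classes, callus macrophages held 678 CPM (612 to 749) of Ccl4 in control and 580 CPM (509 to 657) in GC, yet 153 of the 244 GC UMIs were in 1 cell. Without the highest cell of each library the levels were 515 and 219.9 CPM, a ratio of 0.427. Ccl3 in macrophages was 67.2 and 128 CPM, a ratio of 1.91 (1.24 to 2.97). Callus NK cells held 187 CPM of Ccl4 in control and 122 CPM in GC. Callus B cell cluster 6 held 40.5 CPM of Ccl3 and 53.5 CPM of Ccl4 in control and 13.7 and 15.2 CPM in GC, from 12 and 4 Ccl3-positive cells, and the Ccl3 difference had too few UMIs to be called once the highest cells were left out.

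**Figure D3:**
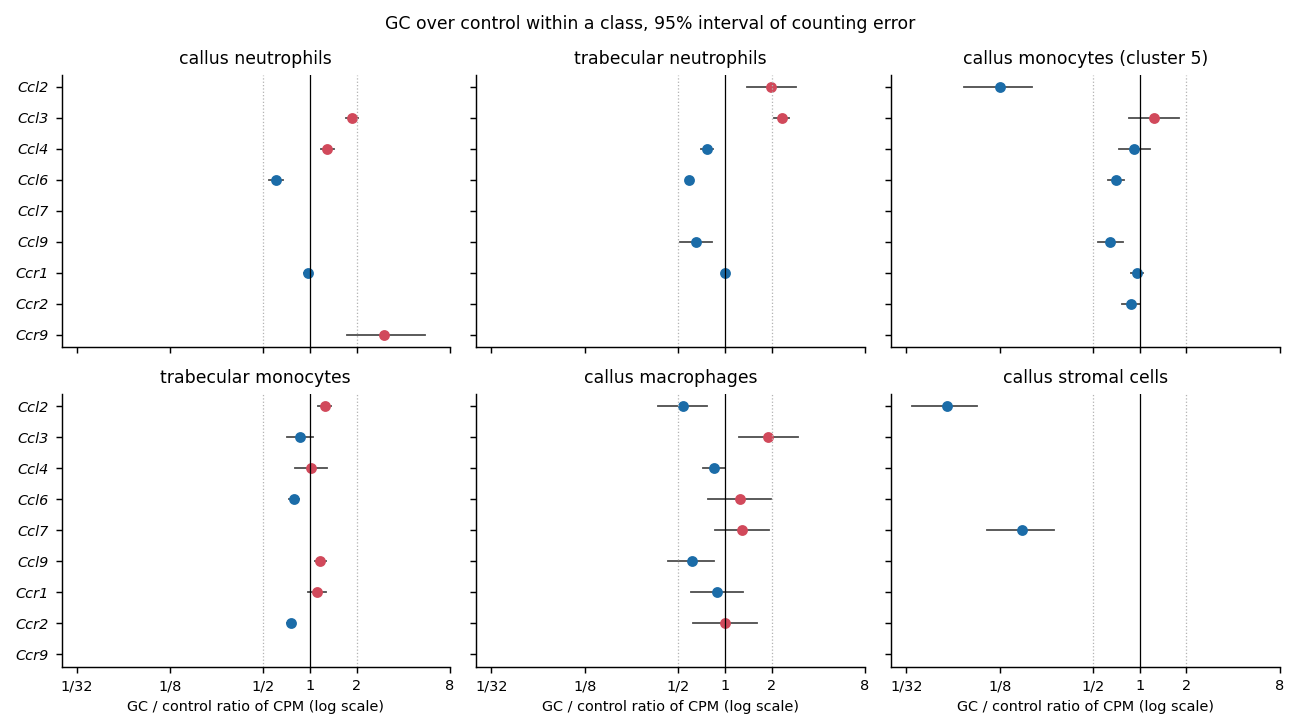
GC/control ratio of CPM (horizontal axis, log scale) for each gene with at least 50 UMIs over both libraries in 6 classes; bars are 95% intervals of counting error, the solid line marks equal levels dotted lines mark 2-fold differences, and blue points lie below 1 and red points above. Ccl2 lies far to the left in callus monocytes (0.125) and stromal cells (0.0567) and to the right of 1 in trabecular monocytes (1.24), and Ccr1 lies at 0.974 and 0.997 in callus and trabecular neutrophils.

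Ccl6 was the ligand with most UMIs in trabecular bone, 15427 in control and 10575 in GC. Neutrophils held 1603 CPM (1575 to 1632) in control and 942 CPM (921 to 964) in GC, a ratio of 0.588 (0.571 to 0.605). In callus neutrophils it was 450.3 CPM (424 to 478) in control and 272 CPM (249 to 297) in GC, a ratio of 0.605 (0.543 to 0.673). The lower Ccl6 level in GC was found in all 3 callus neutrophil clusters and in both trabecular ones with cells of both libraries, with ratios of 0.432 to 0.764, and the interval included 1 in callus cluster 1 (0.531 to 1.07). Monocytes went the same way, with ratios of 0.704 (0.626 to 0.791) in callus cluster 5 and 0.789 (0.735 to 0.845) in trabecular bone. Trabecular promyelocytes did so as a class (0.569, 0.476 to 0.679). Within trabecular monocyte clusters the ratios were nearer 1, at 0.943 (0.871 to 1.02) in cluster 9, 0.810 (0.680 to 0.965) in cluster 10.1 and 1.03 (0.754 to 1.42) in cluster 10.3. Promyelocyte cluster 10.0 gave 0.659 (0.503 to 0.858) at 137 and 90.4 CPM, and cluster 10.2 gave 1.03 (0.653 to 1.64). Promyelocyte clusters 11 and 14.0 held only 25.6 and 31.8 CPM in control and 13.8 and 18.3 CPM in GC. These levels were near those of erythroid cells, so their ratios cannot be told from a change in free RNA. Mast cells and basophils of trabecular bone did not go the same way, at 577 and 739 CPM. Immature neutrophils as a class were at 43.4 and 46.1 CPM, yet within clusters 3, 6 and 8 Ccl6 was lower in GC, with ratios of 0.620 (0.414 to 0.920), 0.256 (0.110 to 0.512) and 0.440 (0.272 to 0.692). Clusters 3 and 8 held only 21.2 and 20.8 CPM in control and 13.15 and 9.15 CPM in GC, near the level of erythroid cells, which should lack Ccl6. Their ratios can therefore not be told from a change in free RNA. Cluster 6 held 85.1 and 21.8 CPM. Cluster 5, with 18 control and 569 GC cells, gave 0.917 (0.549 to 1.65). At 1000 UMIs per cell, 67.1% of control and 48.4% of GC trabecular neutrophils held Ccl6.

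In trabecular bone Ccl6 also appeared in cells that should lack it. Erythroid cells held 21.1 CPM in control and 6.51 CPM in GC, and B cells 29.0 CPM in control. The 16 GC B cells held 0 UMIs, which allows up to 60.2 CPM (3 counts), so no difference could be seen. Barcodes with at most 100 UMIs, taken as empty droplets, held 324 CPM (308 to 341) of Ccl6 in control and 191 CPM (177 to 206) in GC trabecular bone. The level in erythroid cells thus moved with that of free RNA. Callus dendritic cells held 83.6 CPM in control and 28.4 CPM in GC.

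Ccl9 was high in osteoclasts, the bone-resorbing cells, which are known to make it. Callus osteoclasts held 570.4 CPM (539 to 603, 112 cells) in control and 702 CPM (666 to 739, 123 cells) in GC, a ratio of 1.23 (1.14 to 1.33), and 90.2% and 93.5% of them held at least 1 UMI. They were 1.67% and 1.79% of callus cells and held 52.9% and 66.2% of all Ccl9 UMIs. Callus monocyte cluster 5 held 151 and 97.4 CPM, a ratio of 0.645 (0.535 to 0.775), and macrophages 202 and 124 CPM, a ratio of 0.613 (0.433 to 0.858). Trabecular monocytes held 387 CPM (365 to 411) in control and 452 CPM (428 to 476) in GC, a ratio of 1.17 (1.08 to 1.26). Mast cells and basophils of control callus, 16 in number, held 2647 CPM (2181 to 3182), above osteoclasts of the same library. Those of trabecular bone held 771 and 731 CPM, with overlapping intervals. In CPM, Ccl9 was thus higher in GC in osteoclasts and trabecular monocytes and lower in callus monocytes and macrophages.

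Ccr1, which binds CCL3, CCL6, CCL7 and CCL9, was the receptor of neutrophils. It was 1235 CPM (1191 to 1281) in control and 1203 CPM (1154 to 1254) in GC callus neutrophils and 653 CPM (635 to 671) and 650.5 CPM (633 to 668) in trabecular ones. The ratios were 0.974 (0.921 to 1.03) and 0.997 (0.959 to 1.04). Over the alternatives the trabecular log2 ratio ran from -0.39, with median of ratios scaling, to 0.29, with at least 500 genes per cell, so its direction depends on the processing. Within callus cluster 1 the ratio was 0.599 and within trabecular cluster 1 it was 0.777, both with few GC cells. Other classes with Ccr1 were callus monocytes of cluster 5 (450.4 and 433 CPM), mast cells and basophils (422 CPM in control callus, 244 CPM in either trabecular library), trabecular immature neutrophils (194 and 233 CPM, ratio 1.20, 1.13 to 1.27) and osteoclasts (149.5 and 189 CPM, ratio 1.26, 1.09 to 1.47). Neutrophils held 58.3% to 65.4% of Ccr1 UMIs in the 4 libraries. In trabecular neutrophils, ligand Ccl6 and receptor Ccr1 were thus read in the same class, at 67.1% and 49.5% of control cells after thinning.

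Ccr2, the receptor of CCL2 and CCL7, was highest in trabecular monocytes, with 978 CPM (942 to 1015) in control and 739 CPM (709 to 771) in GC, a ratio of 0.756 (0.715 to 0.799). Of 223 control cells 222 held a UMI, and of 219 GC cells 216. At 1000 UMIs per cell the shares were 65.0% and 51.1%. Promyelocytes had a similar ratio at a lower level (159 and 119 CPM, 0.750, 0.684 to 0.822). Of their 985 control UMIs, 566 were in cluster 10.0 and 261 in cluster 10.2, at 449 and 360 CPM. These 2 were divided from the same cluster as monocyte clusters 10.1 and 10.3. Within promyelocyte clusters the ratios were nearer 1, at 0.962 (0.8455 to 1.095) in cluster 10.0, 0.795 (0.6731 to 0.9405) in cluster 10.2 and 0.8615 (0.6683 to 1.112) in cluster 14.0. In callus monocyte cluster 5 the level was 226 and 198 CPM, a ratio of 0.876 with an interval from 0.764 that included 1. Callus NK cells held 373 and 442 CPM (ratio 1.18, 0.956 to 1.46), dendritic cells 162 and 244 CPM (higher in GC, with a ratio of 1.50 and an interval of 1.16 to 1.97), and plasmacytoid dendritic cells 693 CPM (594 to 803, 52 cells) in control and 421 CPM (320 to 544, 33 cells) in GC. The last difference turned with doublets kept, to a log2 ratio of 1.25 over 36 control and 27 GC cells. Neutrophils held below 4 CPM in all 4 libraries. Ccl2 and Ccr2 thus shared a leading class, the monocytes, in trabecular bone, whereas in callus the highest Ccl2 was in macrophages and the highest Ccr2 in plasmacytoid dendritic cells (control) and NK cells (GC).

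Ccr9 was almost wholly a gene of plasmacytoid dendritic cells, the interferon-producing dendritic cells. In callus they held 3479 CPM (3253 to 3716) in control and 5760 CPM (5366 to 6175) in GC, a ratio of 1.66 (1.50 to 1.82), and 88.5% and 90.9% of them held a UMI. These cells were 0.775% and 0.479% of callus cells and held 84.2% and 80.5% of Ccr9 UMIs. In trabecular bone 32 control cells held 1410 CPM (1265 to 1568), and GC had 6 such cells, too few to compare. Over all trabecular cells Ccr9 was 10.6 CPM in control and 2.32 CPM in GC, a ratio of 0.219, and with the class shares of the control library the ratio would be 0.958. The value of 0.958 rests on the level in those 6 GC cells. With that limit, the lower all-cell level came with fewer plasmacytoid dendritic cells. Callus neutrophils held 7.92 CPM of Ccr9 in control and 24.0 CPM in GC, a ratio of 3.03 (1.73 to 5.49) from 19 and 44 UMIs, and empty droplets of control callus held 15.6 CPM. Ccl25, the ligand of CCR9, was at most 50.7 CPM in any class of any library.

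**Figure D4:**
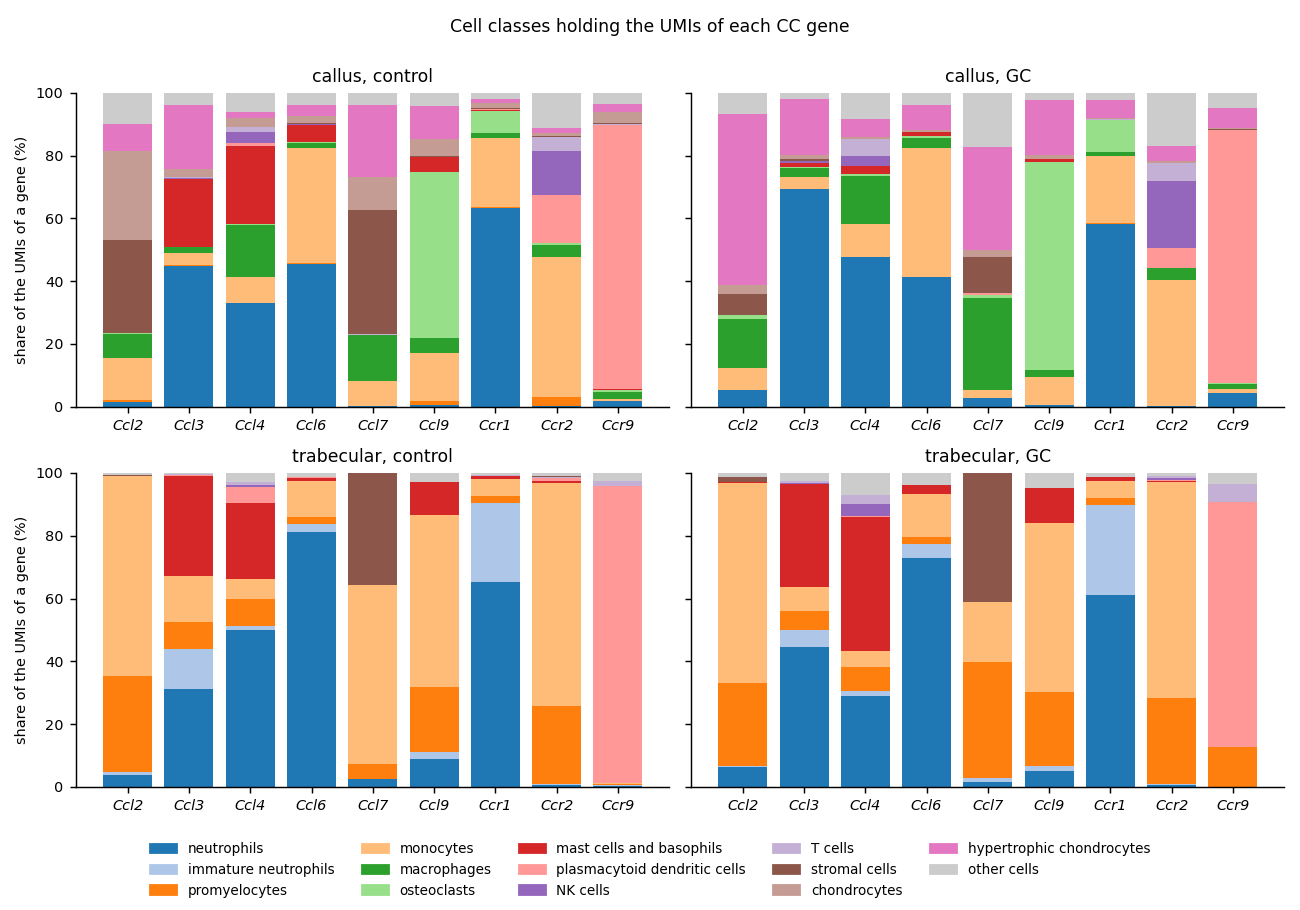
Share of the UMIs of each gene (vertical axis, percent) held by each cell class, with 1 panel per library and 1 bar per gene; each colour is a class and grey the remaining cells. Osteoclasts hold 52.9% and 66.2% of Ccl9 UMIs in control and GC callus, and plasmacytoid dendritic cells hold 78.2% to 94.7% of Ccr9 UMIs.

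The 9 genes were set against the whole table by 1 rule, under which a gene in a class was called when it differed at least 2-fold, with 5 CPM added to both levels, and had at least 50 UMIs over both libraries. In callus, 51 of 216 pairs of a gene and a class or cluster had enough UMIs. 2 were higher in GC (3.92%), against 1.32% of all gene and class pairs, and 8 were lower (15.7%), against 1.92%. The median log2 ratio of the 51 was -0.19. The 8 were Ccl2 in stromal cells, chondrocytes and monocyte cluster 5, Ccl7 in stromal cells and hypertrophic chondrocyte cluster 8, Ccl3 and Ccl4 in B cell cluster 6 and Ccl6 in dendritic cells. The 2 higher ones were Ccr9 in neutrophils and Ccl2 in hypertrophic chondrocyte cluster 11 (6.73 and 21.1 CPM), and the latter was not called without its highest cell. Nor, without the highest cell of each library, were the lower pairs Ccl7 in hypertrophic chondrocyte cluster 8 and Ccl3 in B cell cluster 6. Ccl4 in macrophages and Ccr2 in plasmacytoid dendritic cells were then called lower. Of the 8, the log2 ratio of Ccl2 in chondrocytes was -0.62 with a pseudocount of 20 CPM, and those of Ccl7 in stromal cells and Ccl6 in dendritic cells were -0.99 and -0.52 at Leiden resolution 0.5, inside the 2-fold line. The 9 genes and the classes share libraries and cells, so these counts are not independent.

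In trabecular bone, 35 of 90 pairs had enough UMIs. 1 was higher in GC (2.86%), against 1.73% of all pairs, namely Ccl3 in neutrophils, and 2 were lower (5.71%), against 4.64%, namely Ccl6 in erythroid cells and in B cells. The B cell pair passed the rule on fitted values only, since the 16 GC cells allow a level above that of control. The median log2 ratio of the 35 was -0.04. The trabecular shares were thus near those of all genes. The median log2 ratio of all genes was -0.60 in trabecular erythroid cells and B cells, the classes of both lower pairs.

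Between tissues, the classes named in both could be compared within a condition, with the tissue, the library and the depth confounded. In control libraries 24 of 54 pairs had enough UMIs, of which 8 were higher in callus, against 18.3% of all pairs, and 5 lower, against 7.02%. Ccl3, Ccl4, Ccl6 and Ccl9 in mast cells and basophils were among the higher pairs, from only 16 callus cells. Ccl4 and Ccl6 in promyelocytes were among the lower pairs, from 17 callus cells with 2 and 5 UMIs. In GC libraries 10 pairs had enough, of which 4 were higher, against 24.3%, and 2 lower, against 9.28%. Neutrophils gave the clearest order. Trabecular bone had a separate class of immature neutrophils (943 control and 1124 GC cells), and callus had no class of that name. The neutrophil classes of the tissues may thus not cover the same stages. Callus neutrophils had more Ccl3 than trabecular ones, 5.86-fold (5.24 to 6.55) in control and 4.71-fold (4.35 to 5.09) in GC, and more Ccl4, 2.25-fold and 3.80-fold. They had less Ccl6, with ratios of 0.281 (0.264 to 0.299) and 0.289 (0.264 to 0.316), and more Ccr1, 1.89-fold (1.81 to 1.98) in control and 1.85-fold (1.76 to 1.94) in GC. Plasmacytoid dendritic cells of control callus had 2.47-fold (2.18 to 2.80) more Ccr9 and 4.31-fold more Ccr2 than those of trabecular bone, which also carried neutrophil markers at 14682 CPM against 437 CPM in callus.

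Over all cells, the callus level of Ccl2 was 17.7 CPM in control and 5.17 CPM in GC, a ratio of 0.292 (0.256 to 0.332), and it would be 0.231 with the class shares of control. Ccl6 was lower in GC in both tissues, with ratios of 0.741 (0.691 to 0.795) in callus and 0.623 (0.608 to 0.639) in trabecular bone. Ccl3 was higher in both, with ratios of 1.34 (1.26 to 1.43) and 1.55 (1.45 to 1.65). Per 1000 cells, however, callus Ccl3 was 298 UMIs in control and 268 UMIs in GC, and Ccl9 (355.5 and 316) and Ccr1 (697 and 550.1) were lower in GC callus as well, so these callus directions depend on the scaling. Ccr1 had ratios of 1.18 in callus and 1.02 in trabecular bone. With control class shares the callus ratio of Ccr1 was 1.01 and that of Ccl9 1.03 in place of 1.33, so these all-cell differences came with the class shares.

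The genes most like each of the 9 were named by Pearson r of log2(CPM + 5) over 59 class and library units, among 8789 genes. The units share libraries and depth, so r is a description. Ccl3 was most like Ccl4 (r = 0.85), Hgf and Nlrp3, and Ccl4 most like Ccl3, Rgs1 and Cd244a. Ccl6 was most like Nlrp3 (r = 0.93), Clec4e and Il1b, and Ccr1 most like Adam8 (r = 0.94), Lilrb4a and Clec4e. Ccl2 was most like Lamp1, Mcub and Ang, and Ccl7 most like Cfb, Ang and Axl, with r = 0.67 between Ccl2 and Ccl7. Ccr2 was most like Ms4a6c, Itgb7 and Otulinl, Ccl9 most like Adora2b, Mboat1 and 1700012B09Rik, and Ccr9 most like Siglech (r = 0.89), a plasmacytoid dendritic cell receptor, Havcr1 and Sh3bgr.

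26 other genes of the family gave 42 pairs with enough UMIs in callus. There 1 was higher in GC (2.38%), against 1.32% of all pairs, and 4 were lower (9.52%), against 1.92%. In trabecular bone 19 pairs had enough, of which 3 were higher (15.8%), against 1.73%, and 3 lower (15.8%), against 4.64%. Ccl5, a ligand of CCR1 made by cytotoxic lymphocytes, had the highest levels of the 26. It held 5695 and 5837 CPM in callus NK cells and 12631 CPM in the 20 GC trabecular NK cells. Ccl5 accounted for all 4 lower pairs in callus. These were macrophages (441 and 47.5 CPM), chondrocytes (22.4 and 5.27 CPM), osteoclasts (22.1 and 7.8 CPM) and stromal cells (ratio 0.168). In callus NK cells and T cells the Ccl5 ratios were 1.025 and 0.828. Whether the Ccl5 of the 4 lower pairs was free RNA, or sat in few cells, was not tested. The single higher pair was Ccl21a in endothelial cells, with 0 UMIs in control and 76 in GC. Ccrl2, an atypical receptor that binds chemerin, was 230 CPM (219 to 241) in control and 489 CPM (474 to 504) in GC trabecular neutrophils, a ratio of 2.13, and 253 and 273 CPM in callus neutrophils. In trabecular neutrophils the log2 ratio of Ccrl2 was 1.07, just past the 2-fold line, where the median over all genes was 0.28. Of these GC cells, 1090 and 768 were in clusters 0 and 2, which held no control cell. Ccrl2 was lower in GC trabecular monocytes (92.8 and 43.7 CPM) and higher in GC trabecular mast cells and basophils (39.4 and 228 CPM). Ccr7, which guides cells to lymph nodes, was 90.3 and 251 CPM in trabecular T cells. The other lower trabecular pairs were Ccl5 and Ccl21a in promyelocytes.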

How the data were processed

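Single-cell RNA-Seq counts of 4 libraries were used, 1 per tissue and condition. Per the file headers the authors made the deposited UMI count matrices with Cell Ranger 4, whereas the submitters' processing notes name Cell Ranger 5.0.1, Seurat 3.2.0 and mm10. Further single-cell settings are not given in the sources used here. The labels name Kit v2, but the list of 6794880 barcodes is longer than that kit's. Of the matrices, 3 list all barcodes. The GC callus matrix lists 7762, none under 500 UMIs, and was taken as already called.

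Cells were called in the full matrices as barcodes over 10% of the 99th percentile of the 3000 largest, or of at least 500 UMIs and different from the profile of barcodes ranked 45001 to 90000 (10000 simulations, adjusted p of 0.01). Cells needed 200 genes and at most 10% mitochondrial UMIs, and putative doublets were removed (406 control and 428 GC cells of callus, 125 and 183 of trabecular bone). Each tissue was clustered without batch correction on 2000 variable genes, 30 components, 15 neighbors and Leiden resolution 1, leaving out all CC family genes and the gene lists. Clusters of at least 60 cells with markers of several classes were divided on 15 components at resolution 0.5. Clusters were named from 226 markers of 22 classes (2-fold over the median cluster, 10% of cells, 3 markers). The naming rule was settled after the clusters had been seen. A class with a cluster led by markers of another class was compared by cluster only.

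UMIs were summed per class (at least 15 cells per library). Intervals are exact Poisson for CPM, Clopper-Pearson for shares and exact conditional for ratios. Shares of cells are after thinning to 1000 UMIs unless UMIs per cell are named. Thinned shares leave out cells with fewer than 1000 UMIs. The 9 genes and all lists were chosen with earlier results of these data known. Genes named are the 9, the 26 other family genes, list members and, for each of the 9, the 3 genes of highest r. The calling and ratio steps were tested on simulated data. Clusters were made with leidenalg 0.10.2 and igraph 0.11.9 after principal components in scikit-learn 1.9.0. Intervals came from scipy 1.17.1, tables from pandas 2.3.3 and numpy 2.4.6, and plots from matplotlib 3.10.9, in Python 3.11.15.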

Additional observations from a re-analysis of the deposited data

Results flagged for a closer look

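The GC/control ratios of 3 genes lay on opposite sides of 1 in the 2 tissues, with intervals that did not overlap. These differences between tissues were not tested, since each ratio rests on 1 pair of libraries. In monocytes, all clusters of the class included, Ccl2 had a ratio of 0.127 (0.0761 to 0.202) in callus and 1.24 (1.13 to 1.37) in trabecular bone. Ccl9 in monocytes had a ratio of 0.630 (0.526 to 0.754) in callus and 1.17 (1.08 to 1.26) in trabecular bone. Ccl4 in neutrophils had a ratio of 1.30 (1.17 to 1.44) in callus and 0.770 (0.705 to 0.842) in trabecular bone. The trabecular log2 ratio of Ccl4 was 0.18 with at least 500 genes per cell, and within callus cluster 0 and trabecular cluster 1 the Ccl4 ratios were 0.979 (0.853 to 1.13) and 0.959 (0.744 to 1.22). By the rule used elsewhere, callus monocytes were compared by cluster only. The callus monocytes are led by cluster 5, where the ratios were 0.125 (0.0737 to 0.201) for Ccl2 and 0.645 (0.535 to 0.775) for Ccl9. The neutrophils of the 2 libraries of a tissue fall mostly into different clusters.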

How the results depend on the processing

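No paired analysis was possible because each group had 1 library. The main rule called 10 gene and class pairs in callus, 3 in trabecular bone, and 13 (control) and 6 (GC) between tissues. The counts below stand without the share of all genes at each alternative, so they show only how the number of calls moved. The GC callus matrix had no UMI cutoff, so settings with only barcodes over the cutoff kept all its cells and cut the other libraries. The callus counts and the GC counts between tissues at that setting thus set a filtered library against an unfiltered one. In callus the count was 4 with only barcodes over the UMI cutoff, 17 with at least 500 genes per cell, 18 at Leiden resolution 2, 2 after thinning, 5 with a pseudocount of 20 CPM and 33 without the filter on low counts. In trabecular bone it was 8 with doublets kept, 1 after thinning, 8 with a minimum of 20 UMIs, 13 without the filter and 5 without clusters nearly of 1 library, an alternative added after seeing the data. Between tissues in control it was 5 over the cutoff, 20 with related classes merged, 8 after thinning and 22 without the filter. In GC it was 10 over the cutoff, 11 at a mitochondrial maximum of 5%, 12 with 500 genes, 10 at resolution 2, 13 with merged classes, 13 with 20 UMIs, 20 without the filter and 10 with mixed clusters not divided (also added). Among single values past the 2-fold line, 3 alternatives turned the direction. With doublets kept, Ccl2 in callus monocytes had a log2 ratio of 0.56 in place of -2.45, but the name then went to 18 control and 138 GC cells in place of 603 and 578, and in every other setting with a value it stayed lower in GC. Ccl6 in trabecular erythroid cells had log2 ratios of 0.94 (500 genes) and 0.22 (doublets kept) in place of -1.18, and the cause was not tested. Among values inside the line, Ccr2 in callus plasmacytoid dendritic cells turned to 1.25 with doublets kept and Ccl4 in trabecular neutrophils to 0.18 with 500 genes, and Ccr1 in neutrophils, lay on either side of 0, from -0.09 to 0.37 in callus and from -0.39 to 0.29 in trabecular bone. Over the alternatives, log2 ratios ran from 0.70 to 2.52 for Ccl3 in callus neutrophils, 0.59 (20 and 6 UMIs) to 1.66 in trabecular neutrophils, -4.03 to -1.88 for Ccl2 in callus stromal cells and -1.34 to -0.25 for Ccl6 in trabecular neutrophils. With control callus cut to barcodes over the cutoff and GC callus left whole, no callus neutrophils, monocytes or plasmacytoid dendritic cells could be compared.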

Other observations

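In trabecular promyelocytes Ccl4 was near equal over the class, 30.3 CPM in control and 31.7 CPM in GC, while its clusters differed. Cluster 11 held 31.6 CPM in control and 4.70 CPM in GC, cluster 14.0 held 26.3 and 114 CPM, and cluster 14.2 held 112 and 40.5 CPM. The UMIs were in few cells, 34 of 273 in control and 43 of 322 in GC, with 37 and 55 UMIs in the highest.

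In trabecular monocytes the clusters also differed in Ccl4. Cluster 9 held 31.6 CPM in control and 60.7 CPM in GC, and cluster 10.1 held 105 and 41.7 CPM. Ccl2 and Ccr2 did not split in this way: across clusters 9, 10.1 and 10.3 the ratios were 1.15, 1.18 and 1.68 for Ccl2 and 0.753, 0.828 and 0.958 for Ccr2.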
